A study of Mus musculus with 28 samples.

Results

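RNA-seq counts of tibialis anterior (TA) muscle were compared between 4 Dnm2 S619L/+ mice that received tamoxifen and 4 WT mice that received placebo, that is 8 of the 28 mice of the series and 8 of the 16 mice of its Dnm2 cohort. They were chosen by the genotype and treatment in their labels, and no measured value entered the choice. The question was how far treated mutant muscle still differed from healthy, untreated muscle. The mutants carried 1 allele of Dnm2 with the S619L change and were otherwise of the C57BL/6N strain, like the WT mice, and all were 8 weeks old. Tamoxifen was supplied as a diet supplement, and its dose and duration are not given in the sources used here. The rest of the cohort, placebo Dnm2 S619L/+ mice and tamoxifen-treated WT mice, also in groups of 4, entered the same fit and is given beside single genes to show where a treated mutant value lay. Mutants and controls in this comparison differed in both genotype and treatment, so the effects of the 2 cannot be told apart from it alone.

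Dynamin 2, the product of Dnm2, is a GTPase that wraps around the neck of a budding membrane and cuts it, and overactive forms cause centronuclear myopathy, a weakness in which nuclei sit in the middle of muscle fibers. TA is a fast-twitch muscle, whose fibers contract through fast myosin and troponin and release calcium at triads, the junctions of membrane tubules with the calcium store. Tamoxifen binds the estrogen receptor and blocks or mimics estrogen depending on the tissue, with estrogen-like action in bone.

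The libraries held 15586333 to 109710886 reads on genes in placebo WT mice and 21588926 to 33651769 in treated mutants. Skeletal muscle markers were abundant in all 8 libraries, with Acta1 at 25919 to 40450 CPM (counts per gene, divided by the library total and scaled alike in all libraries). The labels give no sex. Xist, the RNA that silences an X chromosome in females, was at 148 to 161 CPM in all 4 treated mutants, where Y-linked Ddx3y, Uty, Kdm5d and Eif2s3y reached at most 0.0401 CPM. Placebo WT mice 1 and 4 had Xist at 146 and 125 CPM, while mice 2 and 3 had none and had Y-linked genes at 14.3 to 65.7 CPM, so sex was mixed in the controls and uniform in the treated mutants. Treated mutant 4 stood apart from the other treated mutants on the first principal component of the cohort, at −31.3 against 34.9 to 62.9, with placebo WT mice at −69.9 to −40.0 and placebo mutants at −44.4 to −23.5, a range that holds it. Values with a covariate for Xist expression, and without treated mutant 4, are given where they change a result.

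Between treated mutants and placebo WT mice, 4461 of 15439 genes passed the test, which is 28.9% of those tested. Of these, 2435 were higher in treated mutants (15.8% of those tested) and 2026 were lower (13.1%). All counts of list members called below are to be read beside these shares. In 3139 of the 4461 the CPM of the groups did not overlap. Over all genes tested, called or not, the share without overlap was 26.1%. The rises were larger than the falls. A rise of more than 2-fold was fitted for 1434 of the genes called and a fall of more than 2-fold for 257, and beyond 4-fold the numbers were 541 and 56. The median log2 fold change of all genes tested was 0.01. With a covariate for Xist expression, 3266 genes were called (21.2%), and among the 10 mice of the cohort that expressed Xist, of which 2 were placebo WT mice, 1099 were called (6.82%). Of the genes named by rule, called and described in this section, those that lost the call among these 10 mice were Slc15a5, given with its values, and Ctsk, Col1a2, Tnni1, Cdk1, Dnm1, Acat1, Sdha, Tnnc2, Srl, Rgs5, Myh4, Calcr, mt-Tp, mt-Nd6 and mt-Tq (adjusted p from 0.0512 to 0.181). Further calls were lost among the genes of the closing section, where the counts in these mice are given by list. Leaving out treated mutant 3 gave 2955 genes, and leaving out treated mutant 4 gave 5497 (35.1%). The other comparisons of the cohort share mice with this one. Against placebo WT, 21.9% of genes were called in placebo mutants (12.1% higher, 9.81% lower) and 27.7% in treated WT mice (15.8% higher, 11.9% lower). Between treated and placebo mutants it was 8.27% (5.22% higher, 3.05% lower), and the test of whether the tamoxifen effect differed by genotype called 0.259% (0.0324% higher, 0.227% lower in mutants). The plot of the largest changes shows the single mice.

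**Figure D1:**
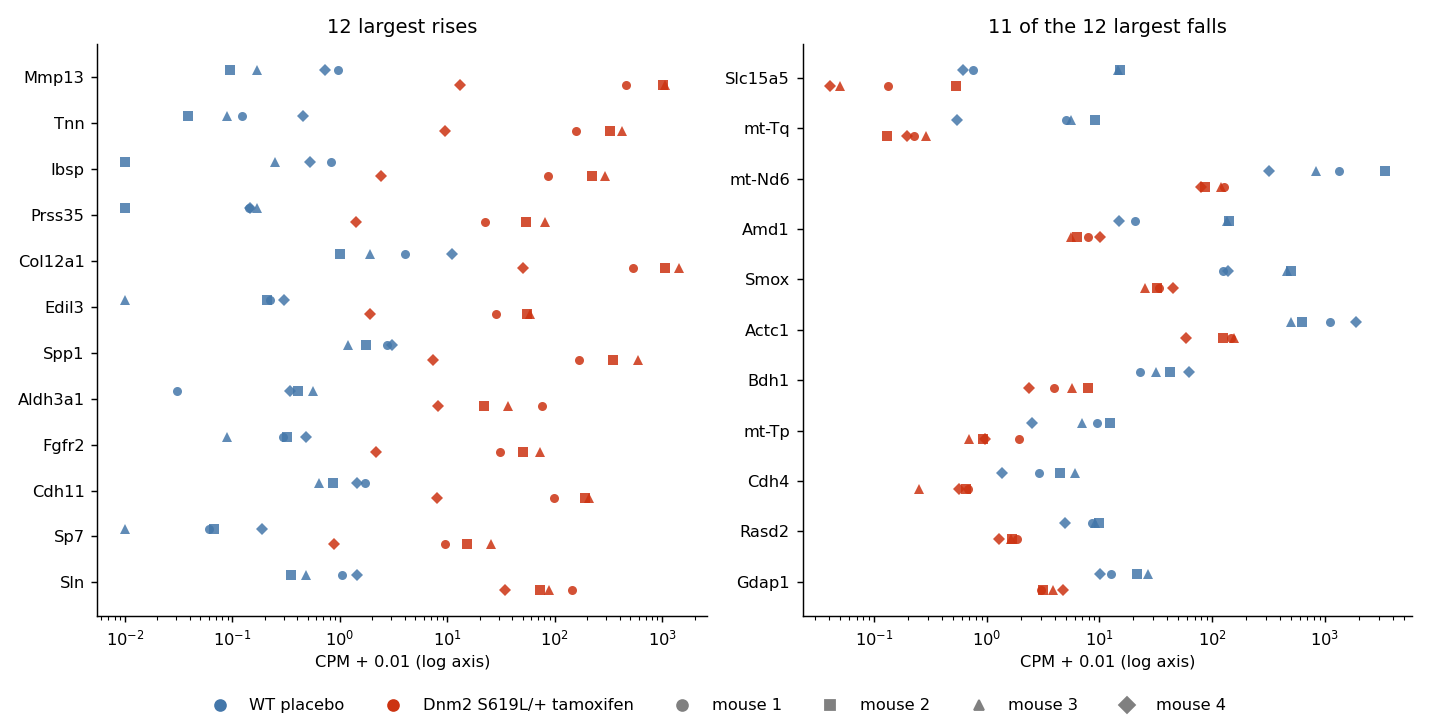
CPM in each mouse (log axis, 0.01 added) of the 12 genes with the largest rises and 11 of the 12 with the largest falls in treated Dnm2 S619L/+ mice (red) against placebo WT mice (blue), with 1 symbol per mouse. Treated mutant 4 (diamonds) has the lowest value of the treated mutants for each of the 12 rises, and placebo WT mice 2 and 3 (squares and triangles) are high for Slc15a5, Amd1 and Smox.

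The mutated gene itself did not pass the test. Dnm2 (ENSMUSG00000033335) was at 63.6, 63.3, 61.0 and 64.4 CPM in placebo WT mice 1 to 4 and at 69.7, 66.5, 64.5 and 66.8 CPM in treated mutants 1 to 4 (log2 fold change 0.08, SE 0.07, adjusted p = 0.405). All 4 treated mutants lay above the highest placebo WT value, by little, and the point mutation cannot be seen in counts per gene. Mtm1, which encodes the phosphoinositide phosphatase myotubularin, was at 15.8 ± 2.38 CPM (SD, n = 4) in placebo WT and 16.7 ± 2.69 CPM in treated mutants (n = 4), and the groups overlapped (log2 fold change 0.08, SE 0.18, adjusted p = 0.775). Bin1, whose product amphiphysin 2 curves membranes at triads, was at 487, 499, 505 and 508 CPM in placebo WT mice and at 695, 518, 533 and 714 CPM in treated mutants. The treated mutants lay above placebo WT by a log2 fold change of 0.30, which missed the threshold (adjusted p = 0.145, SE 0.15), beside 0.81 (adjusted p = 0.00176) in placebo mutants. Of 16 genes tested of the membrane remodelling machinery of centronuclear myopathies, 1 rose and 3 fell, about the share of all genes tested. The riser was the neuronal dynamin Dnm1 (log2 fold change 1.66, adjusted p = 0.00211), and Amph, which encodes amphiphysin 1, fell by 1.54 on the log2 scale (adjusted p = 0.00161). In libraries thinned to the smallest, Amph had −0.97 and did not pass (adjusted p = 0.105).

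Many of the genes that muscle switches on when its nerve supply is lost or when it regenerates were called higher. Of 19 such genes tested, 12 were higher in treated mutants and 1 was lower, against 15.8% higher and 13.1% lower among all genes tested. Their median log2 fold change was 1.52. Members near 0 in placebo WT mice, such as Krt18, Sox11 and Chrng, passed the low-count filter only through other groups. Such members could not have been called lower. Summed over the list, which includes Actc1, placebo WT mice 1 to 4 had 1280, 757, 641 and 2123 CPM. Treated mutants 1 to 4 had 903, 704, 737 and 635 CPM, so the groups overlapped. Krt18 (ENSMUSG00000023043), which encodes a keratin of simple epithelia, was at 0.142, 0.113, 0.395 and 0.112 CPM in placebo WT mice 1 to 4 and at 22.1, 12.95, 20.5 and 14.6 CPM in treated mutants 1 to 4. The lowest treated mutant was far above the highest placebo WT mouse (log2 fold change 6.39, SE 0.58, adjusted p = 2.12e-05). Placebo mutants had 23.1 ± 18.6 CPM (n = 4) and treated WT mice 0.134 ± 0.0342 CPM (n = 4), so treated mutants lay in the range of untreated ones. The log2 fold change of placebo mutants against the same WT mice was 6.78 (adjusted p = 7.79e-06).

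Sox11, a transcription factor of developing tissue, had 0.233, 0.0566, 0.158 and 0.112 CPM in placebo WT mice and 6.75, 4.34, 3.93 and 4.69 CPM in treated mutants (log2 fold change 4.58, SE 0.41, adjusted p = 1.71e-05). No value overlapped, and the treated mutants lay near each other. In placebo mutants the level was 11.4 ± 4.12 CPM, with a log2 fold change of 5.77 against placebo WT. Runx1, a transcription factor known to limit wasting in denervated muscle, was at 2.02, 1.61, 0.949 and 3.66 CPM in placebo WT mice and 35.0, 30.1, 47.0 and 24.1 CPM in treated mutants (log2 fold change 3.94, SE 0.33, adjusted p = 1.54e-05). Again every treated mutant exceeded every placebo WT mouse. Placebo mutants (22.8 ± 4.76 CPM) and treated WT mice (21.4 ± 5.09 CPM) were both above placebo WT.

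The fetal subunit of the acetylcholine receptor at the nerve-muscle synapse, Chrng, was at 0.152, 0.113, 0.237 and 0.134 CPM in placebo WT mice and 4.72, 1.28, 1.48 and 0.741 CPM in treated mutants (log2 fold change 3.36, SE 0.66, adjusted p = 0.00203). All treated mutants were higher, mutant 1 most. The adult subunit Chrne moved the other way, with 14.4, 24.7, 22.8 and 13.9 CPM in placebo WT mice and 4.42, 3.27, 3.37 and 9.45 CPM in treated mutants, a log2 fold change of −1.86 (adjusted p = 0.0205). Musk and Rapsn, which cluster the receptor, had log2 fold changes of −0.17 (adjusted p = 0.794) and 0.01 (adjusted p = 0.981). Further members of the denervation list that rose were Myog and Ncam1, a myogenic transcription factor and an adhesion molecule of immature fibers (log2 fold changes 2.29 and 2.32), and Mymx, which drives fusion of muscle cells (3.96). Cdkn1a, an inhibitor of cell division, rose by 3.32. Treated mutants had less Pax7, the marker of muscle stem cells, at 1.90, 1.12, 1.56 and 2.47 CPM against 5.74, 6.96, 3.95 and 6.19 CPM in placebo WT mice (log2 fold change −1.67, SE 0.37, adjusted p = 0.00413). In bulk tissue, fewer cells of a type and less RNA per cell cannot be told apart.

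The member of the denervation list that fell was Actc1, which encodes cardiac actin, a fetal actin of skeletal muscle. It was at 1104, 626, 502 and 1892 CPM in placebo WT mice 1 to 4 and at 146, 124, 156 and 58.3 CPM in treated mutants 1 to 4 (log2 fold change −3.09, SE 0.56, adjusted p = 0.00132). Every treated mutant was below every placebo WT mouse, with placebo WT mice 1 and 4 highest and treated mutant 4 lowest. The means of placebo mutants (475 ± 399.5 CPM) and treated WT mice (348 ± 102 CPM) lay between.

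Promoters are shown for 5 of these and the next genes because their levels lay apart between the groups and the windows hold motifs of factors that act in muscle or bone. Each is 250 bases before to 50 after a start site, from RefSeq on GRCm38.p6, written 5′ to 3′ on the gene's strand. The counts were made on mm39, so these positions are not those of the count table. Capitals mark matches, on either strand, to the RUNX motif TGTGGT, the AP-1 motif TGANTCA, the E-box CAGCTG of myogenic factors, the CArG box of serum response factor and the palindromic estrogen response element. No other motif was searched, and no capitals of different motifs overlap here.
Chrng chr1:87205561-87205860 (plus strand): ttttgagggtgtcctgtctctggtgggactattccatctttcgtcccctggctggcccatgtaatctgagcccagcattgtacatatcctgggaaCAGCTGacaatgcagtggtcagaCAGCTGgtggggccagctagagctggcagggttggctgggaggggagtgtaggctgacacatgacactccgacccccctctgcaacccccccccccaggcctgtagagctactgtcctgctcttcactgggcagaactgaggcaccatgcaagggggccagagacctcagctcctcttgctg
Sox11 chr12:27342669-27342968 (minus strand): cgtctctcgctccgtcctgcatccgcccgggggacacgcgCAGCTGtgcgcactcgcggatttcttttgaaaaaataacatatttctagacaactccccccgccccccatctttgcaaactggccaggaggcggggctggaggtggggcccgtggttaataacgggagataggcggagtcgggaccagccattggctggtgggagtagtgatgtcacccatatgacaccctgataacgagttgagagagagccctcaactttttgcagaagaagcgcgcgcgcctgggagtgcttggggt
Actc1 chr2:114052826-114053125 (minus strand): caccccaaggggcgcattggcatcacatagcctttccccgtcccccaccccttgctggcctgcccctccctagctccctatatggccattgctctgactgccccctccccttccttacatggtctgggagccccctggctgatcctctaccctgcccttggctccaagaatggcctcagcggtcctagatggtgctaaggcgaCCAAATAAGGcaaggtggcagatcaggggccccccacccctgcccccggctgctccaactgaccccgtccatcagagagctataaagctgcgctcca
Mmp13 chr9:7272264-7272563 (plus strand): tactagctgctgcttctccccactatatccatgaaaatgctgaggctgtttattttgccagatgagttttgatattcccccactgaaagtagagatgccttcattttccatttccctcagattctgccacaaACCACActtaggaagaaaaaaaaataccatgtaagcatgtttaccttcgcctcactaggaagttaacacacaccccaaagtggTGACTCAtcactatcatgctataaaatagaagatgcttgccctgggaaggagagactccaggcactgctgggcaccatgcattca
Ibsp chr5:104299037-104299336 (plus strand): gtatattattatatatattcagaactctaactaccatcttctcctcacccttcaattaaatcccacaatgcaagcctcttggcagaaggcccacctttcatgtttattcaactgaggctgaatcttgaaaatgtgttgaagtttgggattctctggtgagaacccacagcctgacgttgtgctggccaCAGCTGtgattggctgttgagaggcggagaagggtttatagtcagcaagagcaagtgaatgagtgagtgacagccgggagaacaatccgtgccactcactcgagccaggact
Chrng has 2 E-boxes, Sox11 and Ibsp have 1 each, Actc1 has a CArG box, and Mmp13 has a RUNX match, read on the other strand as ACCACA, and an AP-1 match. Among all 32851 promoters of this length, 16.3% held the E-box, 16.8% the RUNX motif, 7.81% the AP-1 motif, 1.63% the CArG box and 0.0548% the estrogen response element. Of 12 promoters found for the denervation genes called higher (10 of 12 genes matched), 3 held the E-box, 2 the RUNX motif and 0 the AP-1 motif. Of 14 promoters of the osteoblast genes called higher (9 of 13 genes matched), 5 held the RUNX motif, 4 the E-box and 1 the AP-1 motif. Of 13 promoters of the collagen genes called higher (11 of 13 genes matched), 2 held the RUNX motif, 2 the E-box and 1 the AP-1 motif. Promoters of 1 gene with several start sites count separately. None in these sets, or of the estrogen receptor and target genes called, held the estrogen response element or the CArG box. A match describes the letters of this window and is not a measured site. Of the 142 genes named by rule, 92 had a promoter in the table.

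Of 13 genes of calcium pumps and their regulators, 3 rose and 2 fell, near the shares of all genes, with a median log2 fold change of −0.36. Sln was among the 12 largest rises and encodes sarcolipin, a small protein that slows the calcium pump of the store. It was at 1.02, 0.340, 0.474 and 1.43 CPM in placebo WT mice 1 to 4 and at 144, 72.0, 87.3 and 34.4 CPM in treated mutants 1 to 4 (log2 fold change 6.47, SE 0.71, adjusted p = 9.52e-05). The groups were far apart, and treated mutants overlapped placebo mutants (129, 55.0, 12.4 and 89.96 CPM), whose log2 fold change against placebo WT was 6.23. Rrad, a small GTPase that inhibits calcium channels, was at 1.13, 0.764, 0.712 and 1.45 CPM in placebo WT mice and 56.4, 24.3, 27.8 and 19.6 CPM in treated mutants (log2 fold change 4.84, SE 0.38, adjusted p = 1.32e-05), beside 33.3 ± 11.4 CPM in placebo mutants. The slow pump Atp2a2 rose (log2 fold change 0.86, adjusted p = 0.00468), and the fast pump Atp2a1 had a log2 fold change of −0.36 (adjusted p = 0.121). Cilp, a matrix protein that binds growth factors, was at 34.0, 8.91, 13.4 and 30.4 CPM in placebo WT mice and 585, 453, 508 and 822 CPM in treated mutants (log2 fold change 4.76, SE 0.46, adjusted p = 3.96e-05), with 827 ± 399 CPM in placebo mutants. Its highest treated value was that of mutant 4.

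**Figure D2:**
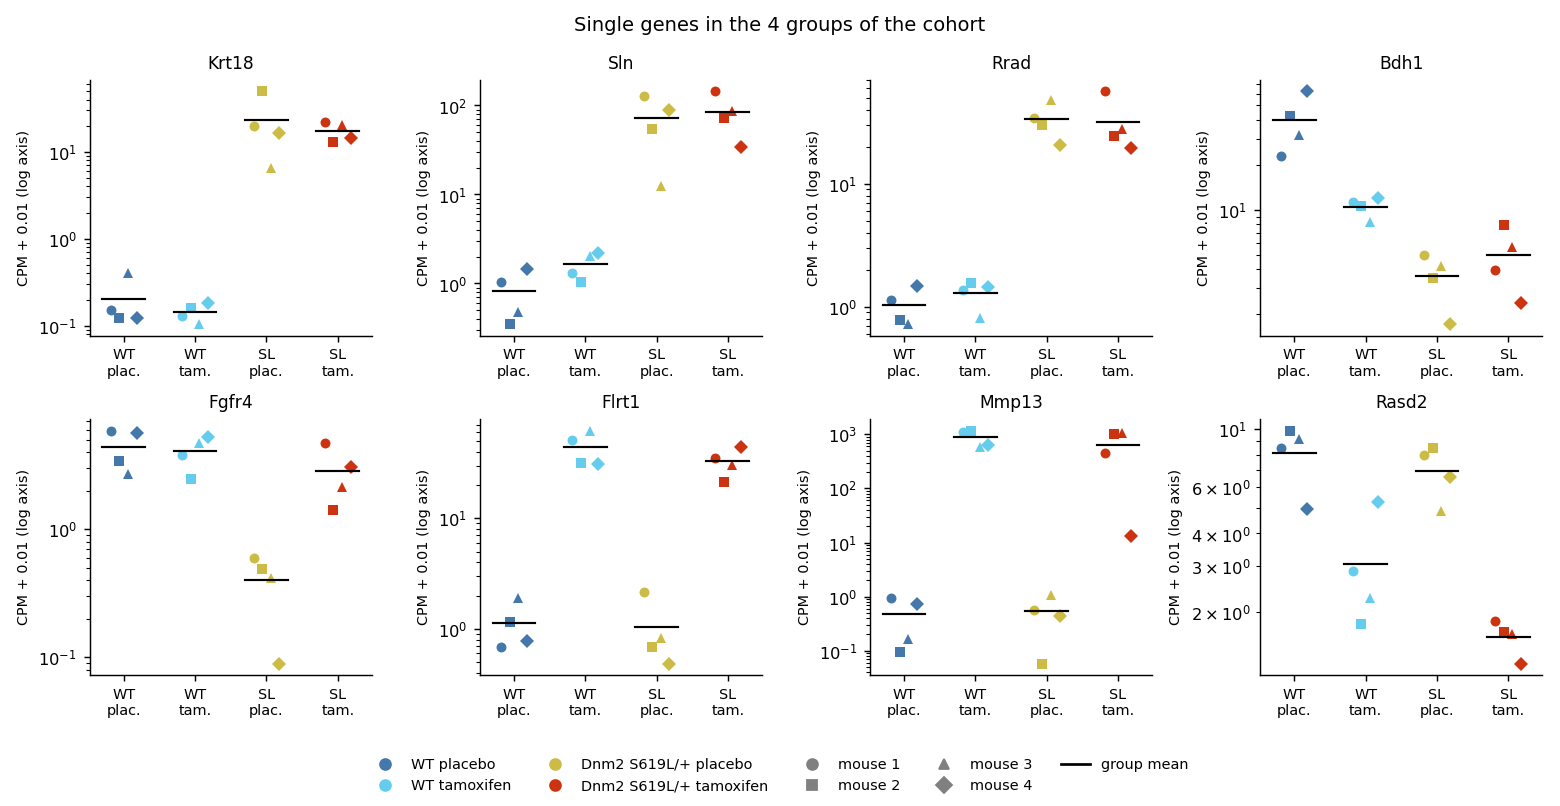
CPM in each mouse (log axis, 0.01 added) of 8 genes in the 4 groups of the cohort (plac., placebo; tam., tamoxifen; SL, Dnm2 S619L/+), with 1 symbol per mouse and a line at each group mean. Krt18, Sln and Rrad are high and Bdh1 is low in both mutant groups, Flrt1 and Mmp13 are high in both tamoxifen groups, and Fgfr4 is lowest in placebo mutants.

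Of 14 fast fiber genes tested, 10 fell and 0 rose, against 13.1% and 15.8% of all genes tested, with a median log2 fold change of −0.62. Myh4, the myosin of the fastest fibers, was at 35634, 41878, 43249 and 26039 CPM in placebo WT mice 1 to 4 and at 15962, 8347, 15006 and 21232 CPM in treated mutants 1 to 4 (log2 fold change −1.28, SE 0.24, adjusted p = 0.00147). Treated mutant 2 had the lowest value and mutant 4 the highest, still below all placebo WT mice. Summed over the list, mutant 4 had 152248 CPM, within the placebo WT range of 146760 to 185936 CPM. The other treated mutants had 90380 to 112158 CPM. Tnnc2, the calcium sensor of fast fibers, fell by 0.64 on the log2 scale (SE 0.15, adjusted p = 0.00533), and Actn3, an actin crosslinker of fast fibers, had a log2 fold change of −0.79 (adjusted p = 0.0157). Myh1, another fast myosin, had 0.06 (adjusted p = 0.879). Of 12 slow fiber genes, 3 rose and 0 fell, DESeq2 called 4 and 0, and 0 fell at an unadjusted p under 0.05. With the Xist covariate 2 slow fiber genes were higher, and among mice that express Xist 1 was. Tnni1, the slow inhibitory troponin, was at 3.47, 1.08, 2.69 and 4.31 CPM in placebo WT mice and 16.2, 7.97, 7.90 and 33.8 CPM in treated mutants (log2 fold change 2.47, SE 0.65, adjusted p = 0.0114). Its call was lost when the Xist covariate was fitted without treated mutant 4, the mouse with the highest value (adjusted p = 0.0577).

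Of 18 triad and calcium release genes, 7 fell and 2 rose, against 13.1% and 15.8% of all genes tested. Srl, a calcium-binding protein of the store, was at 2036, 2582, 2108 and 1995 CPM in placebo WT mice and 1248, 1101, 1141 and 1634 CPM in treated mutants (log2 fold change −0.77, SE 0.13, adjusted p = 7.88e-04). No values overlapped, and mutant 4 was nearest to placebo WT. In the summed triad list, mutant 4 had 16293 CPM, within the placebo WT range of 14656 to 18894 CPM. The other treated mutants had 9932 to 12062 CPM. The release channel Ryr1 and the calcium buffer Casq1 had log2 fold changes of −0.56 (adjusted p = 0.0454) and −0.68 (adjusted p = 0.0221). Cacna1s, the voltage sensor, did not pass (log2 fold change 0.09, adjusted p = 0.720). These counts depend on single mice. Without placebo WT mouse 2 or 3, or treated mutant 2 or 3, 5 fast fiber genes were lower, and without those mice or treated mutant 1, 4 triad genes were. With the Xist covariate they were 5 and 4, without treated mutant 4 they were 12 and 10, and among mice that express Xist they were 1 and 0.

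Reads on the protein-coding genes of mitochondrial DNA made up 19.1% to 25.2% of a library in placebo WT mice and 14.4% to 16.1% in treated mutants, a difference of −7.53 percentage points (exact two-sided permutation test over mice, p = 0.0286, the smallest that 4 against 4 allow). Of 8 of these genes tested, 7 fell, with a median log2 fold change of −0.93. The eighth, mt-Atp6, was at most 2.47 CPM in any of the 8 mice, as were the 5 genes too low to test, and reads of these genes can be shared with near-identical nuclear copies. mt-Cytb, a subunit of complex III, was at 60382, 72449.9, 79509 and 64947 CPM in placebo WT mice and 35129, 38409, 33096 and 38939 CPM in treated mutants (log2 fold change −0.93, SE 0.12, adjusted p = 2.20e-04). The groups were well apart, and placebo mutants had 37333 ± 4926 CPM.

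The largest mitochondrial falls were those of 3 genes transcribed from the light strand. The complex I subunit mt-Nd6 was at 1323, 3399, 832 and 318 CPM in placebo WT mice 1 to 4 and at 128, 86.2, 119 and 79.6 CPM in treated mutants 1 to 4 (log2 fold change −3.83, SE 0.79, adjusted p = 0.00283). Placebo WT mice differed among themselves by more than the treated mutants did, and the lowest of them was still higher than every treated mutant. The glutamine tRNA mt-Tq was at 5.01, 9.17, 5.53 and 0.536 CPM and 0.215, 0.120, 0.281 and 0.185 CPM in the same order (log2 fold change −4.30, SE 0.86, adjusted p = 0.00240), and the proline tRNA mt-Tp had a log2 fold change of −2.74 (adjusted p = 0.00462). Placebo WT mouse 4 was lowest of its group for all 3.

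Of 50 respiratory chain subunits encoded in the nucleus, 24 fell and 0 rose, with a median log2 fold change of −0.32. At an unadjusted p under 0.05, 32 fell and 0 rose, and DESeq2 called 25 and 0. Sdha, a subunit of complex II, was at 1284, 1514, 1555 and 1314 CPM in placebo WT mice and 869, 904, 895 and 1109.6 CPM in treated mutants (log2 fold change −0.59, SE 0.12, adjusted p = 0.00288). The groups did not overlap. The number of subunits called lower was 14 with the Xist covariate and 13 without placebo WT mouse 3, treated mutant 2 or treated mutant 3. It was 15 without placebo WT mouse 2 and 1 among mice that express Xist.

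Of 26 genes of fatty acid oxidation, 17 were lower and 1 was higher. Acadvl, the first enzyme of long-chain oxidation, was at 555, 592, 633 and 559 CPM in placebo WT mice and 338, 382, 326 and 372 CPM in treated mutants (log2 fold change −0.72, SE 0.09, adjusted p = 1.99e-04). Every treated mutant was lower, within a narrow range. The riser was Angptl4, a secreted inhibitor of lipoprotein lipase (log2 fold change 2.41, adjusted p = 0.00326), while Lpl, lipoprotein lipase itself, fell by 1.02 on the log2 scale (adjusted p = 3.10e-04). Without placebo WT mouse 3, treated mutant 1 or treated mutant 3, and with the Xist covariate, 11 of the 26 were lower, and among mice that express Xist 3 were. The summed level of the list was 5186, 6227, 7422 and 5760.0 CPM in placebo WT mice and 3558, 4138, 4149 and 7322 CPM in treated mutants, of which mutant 4 lay within the placebo WT range.

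Among genes of ketone body use, Bdh1 had one of the largest falls, and the median log2 fold change of the 6 tested was −0.28. Bdh1, which turns hydroxybutyrate into acetoacetate, was at 22.8, 42.3, 31.5 and 62.1 CPM in placebo WT mice 1 to 4 and at 3.96, 7.93, 5.66 and 2.38 CPM in treated mutants 1 to 4 (log2 fold change −2.99, SE 0.38, adjusted p = 2.14e-04). No treated mutant reached the lowest placebo WT mouse. Placebo mutants had 3.59 ± 1.40 CPM (log2 fold change −3.44 against placebo WT) and treated WT mice 10.48 ± 1.56 CPM. Oxct1 and Acat1, the next enzymes of the pathway, fell by 0.96 and 0.56 on the log2 scale (adjusted p = 0.00114 and 0.00131).

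Of 23 genes of glycolysis and glycogen, 15 fell and 1 rose. Phka1, a regulatory subunit of the kinase that starts glycogen breakdown in muscle, was at 792, 1007, 992 and 720.3 CPM in placebo WT mice and 319, 282, 286 and 430.4 CPM in treated mutants (log2 fold change −1.41, SE 0.18, adjusted p = 1.58e-04). Hk2, the muscle hexokinase, had a log2 fold change of −1.10 (adjusted p = 0.00443), whereas Hk1 had 0.87 (adjusted p = 0.00968) and was the riser. With the Xist covariate, 14 of the 23 genes were lower, and among mice that express Xist 4 were.

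Slc15a5, Amd1 and Smox were among the 12 largest falls, and their levels in placebo WT mice went with the sex-linked genes. Slc15a5, a member of a peptide transporter family, was at 0.750, 15.1, 14.6 and 0.603 CPM in placebo WT mice 1 to 4 and at 0.123, 0.518, 0.0401 and 0.0309 CPM in treated mutants 1 to 4 (log2 fold change −5.07, SE 1.30, adjusted p = 0.00987). Mice 2 and 3, which had Y-linked reads, were far above mice 1 and 4. With the Xist covariate its log2 fold change was −2.44 and the call was lost (adjusted p = 0.0807). Amd1 and Smox are enzymes of polyamine metabolism. Amd1 was at 20.8, 141, 136 and 15.0 CPM and 7.82, 6.34, 5.58 and 10.1 CPM in the same order, and the covariate changed its log2 fold change from −3.37 to −2.18 (adjusted p = 0.00914). Smox was at 126, 498, 459 and 137 CPM and 33.9, 32.1, 25.4 and 44.4 CPM, and its log2 fold change went from −3.16 to −2.46 (adjusted p = 7.94e-04). Reads of Amd1 can be shared with its close copies. For both genes, treated mutants were also below placebo WT mice 1 and 4, which expressed Xist as they did.

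**Figure D3:**
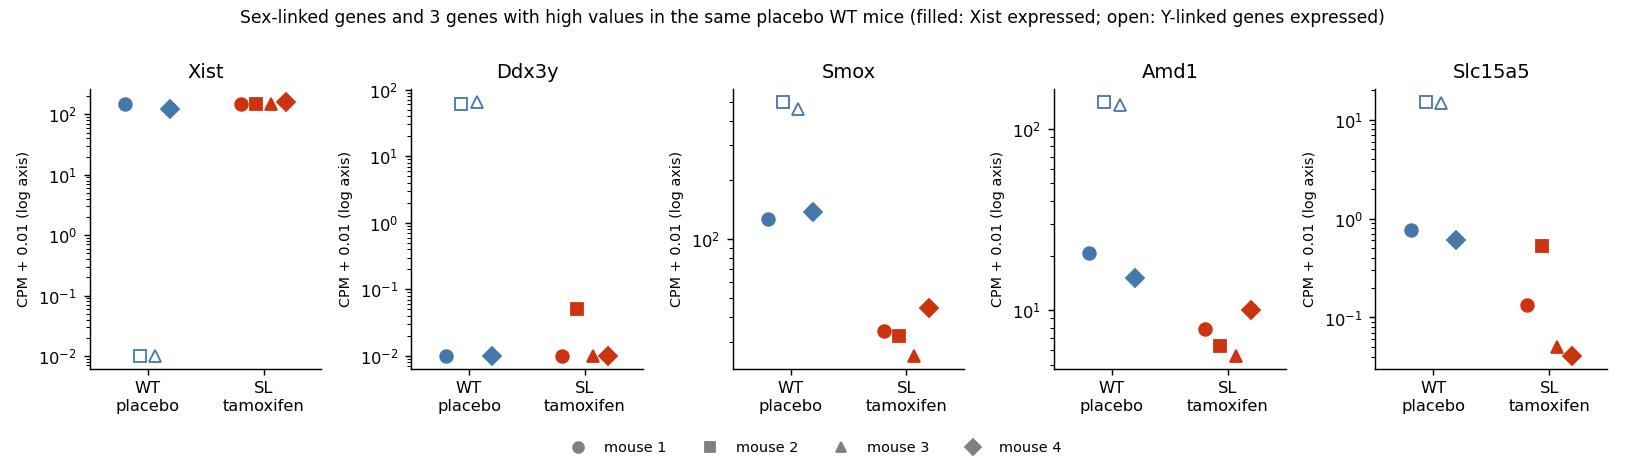
CPM in each mouse (log axis, 0.01 added) of Xist, the Y-linked gene Ddx3y, Smox, Amd1 and Slc15a5 in placebo WT (blue) and treated Dnm2 S619L/+ mice (red), with 1 symbol per mouse, filled where Xist was expressed. The 2 open symbols, placebo WT mice 2 and 3, are the highest for Smox, Amd1 and Slc15a5.

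Bone and matrix genes had the largest rises of the comparison. Of 16 osteoblast and osteocyte genes tested, 13 rose and 0 fell, against 15.8% and 13.1% of all genes tested. Their median log2 fold change was 4.01, and 0 fell by DESeq2 or at an unadjusted p under 0.05. Members near 0 in all placebo mice, such as Sp7, passed the low-count filter only through the tamoxifen groups. Such members could not have been called lower, so the absence of falls says nothing about them. The same holds for any such member of the osteoclast and cartilage lists. Mmp13 (ENSMUSG00000050578), the collagenase of bone and cartilage, was at 0.953, 0.0849, 0.158 and 0.715 CPM in placebo WT mice 1 to 4 and at 460.1, 1016, 1064 and 13.1 CPM in treated mutants 1 to 4 (log2 fold change 9.96, SE 1.17, adjusted p = 1.42e-04). Treated mutant 4 was far below the other 3 and above every placebo WT mouse. Placebo mutants had 0.522 ± 0.410 CPM and treated WT mice 874 ± 308 CPM. The log2 fold change of tamoxifen was 10.09 in mutants (adjusted p = 6.46e-04) and 10.42 in WT mice (adjusted p = 1.77e-04). Among mice that express Xist, the value in mutants was 10.2 and missed the threshold (adjusted p = 0.0675).

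Ibsp, bone sialoprotein of mineralized matrix, was at 0.821, 0, 0.237 and 0.514 CPM in placebo WT mice and 87.1, 222, 294 and 2.41 CPM in treated mutants (log2 fold change 8.14, SE 1.22, adjusted p = 4.34e-04). Sp7, the transcription factor that commits cells to the osteoblast fate, was at 0.0507, 0.0566, 0 and 0.179 CPM and 9.57, 15.3, 25.3 and 0.864 CPM (log2 fold change 6.53, SE 0.81, adjusted p = 1.67e-04). Both had the order of Mmp13 within the treated mutants, with mutant 3 highest and mutant 4 lowest. Runx2 and Bglap2, the other defining transcription factor and an osteocalcin, had log2 fold changes of 4.16 and 5.69, and reads of osteocalcin genes can be shared between close copies. Phex, a marker of mature osteoblasts and osteocytes, did not pass (log2 fold change 0.04, adjusted p = 0.959), and its CPM was 0.730, 0.990, 0.712 and 0.424 in placebo WT mice and 0.613, 0.638, 1.40 and 0.309 in treated mutants. Summed over the list, the level was 3735, 6749, 8895 and 564 CPM in treated mutants 1 to 4 against 292, 206, 162 and 487 CPM in placebo WT mice and 7740.5, 11313, 5053 and 7393 CPM in treated WT mice. Treated mutant 4 was thus near the placebo mice, whose mutants had 594, 575, 558 and 438 CPM.

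Osteoclast genes, which serve bone resorption, were also higher, 9 of 11 tested being called. Calcr, the calcitonin receptor, was the 1 called lower, a call that was lost when any one of 7 of the 8 mice compared was left out, treated mutant 3 excepted. Acp5, the tartrate-resistant phosphatase, was at 1.47, 0.764, 0.474 and 2.30 CPM in placebo WT mice and 78.8, 85.1, 240.3 and 5.43 CPM in treated mutants (log2 fold change 6.17, SE 0.96, adjusted p = 5.30e-04). Ctsk, the collagen-degrading cathepsin, was at 7.26, 6.34, 4.98 and 7.24 CPM and 105, 131, 288 and 14.0 CPM (log2 fold change 4.35, SE 0.69, adjusted p = 6.07e-04). In both, treated mutant 4 was lowest of the treated mutants and above the placebo WT mice. Of 12 cartilage genes tested, 6 rose and 1 fell, and the main cartilage collagen Col2a1 had 2.26 (adjusted p = 0.0663). Of 12 tendon genes, 7 rose and 0 fell, with DESeq2 calling 8 and 0. Scx, the tendon transcription factor, was at 1.61, 0.594, 0.949 and 2.70 CPM in placebo WT mice and 5.73, 6.22, 8.10 and 7.87 CPM in treated mutants (log2 fold change 2.16, SE 0.37, adjusted p = 9.18e-04). Mutant 4 was among the highest for Scx but lowest of the treated mutants for the tendon markers Tnmd and Mkx (3.12 and 0.216 CPM), within the placebo WT range. The summed tendon level was 1246, 2202, 2556 and 364 CPM in treated mutants 1 to 4 and 119.9, 81.4, 78.6 and 352 CPM in placebo WT mice.

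The connective tissue lists had the same direction. Of 16 collagens, 13 rose and 0 fell. Col1a2, a chain of collagen I, was at 299.9, 267, 215 and 438 CPM in placebo WT mice and 3249, 5458, 6984 and 610.1 CPM in treated mutants (log2 fold change 3.74, SE 0.52, adjusted p = 3.07e-04). The groups did not overlap, and mutant 4 was nearest to placebo WT. Basement membrane chains differed from this, with log2 fold changes of 0.01 (adjusted p = 0.988) for Col4a1 and 0.07 (adjusted p = 0.828) for Col4a2. Of 20 matrix proteases, inhibitors and crosslinkers, 14 rose and 1 fell, among them the crosslinking enzyme Lox (log2 fold change 3.83, adjusted p = 3.07e-04). Of 22 proteoglycans and genes of the TGF-beta axis, 19 rose and 0 fell. Postn, a matrix protein of repair, was at 17.4, 11.8, 10.7 and 31.4 CPM in placebo WT mice and 546, 1105, 1378 and 75.3 CPM in treated mutants (log2 fold change 5.43, SE 0.73, adjusted p = 2.49e-04).

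Neutrophil markers of bone marrow were near 0 in both groups. Mpo, Elane, Camp and Ngp were at most 0.279 CPM in every one of the 8 mice, and S100a8 was at 0.283 to 0.811 CPM in placebo WT mice and 0.154 to 0.368 CPM in treated mutants. Of the keratinocyte markers, Krt5 and Krt14 were at most 0.0309 CPM and Krt10 was at 0.870 to 1.35 CPM in placebo WT mice and 1.104 to 1.71 CPM in treated mutants. The part that another tissue within the samples had in the bone and matrix results was not tested. Among the mice that express Xist, 8 osteoblast, 3 osteoclast and 4 collagen genes were higher, and with the Xist covariate 13, 8 and 12 were. The filter of more than 10 reads in 90% of the mice removed part of these genes before the test and left 5 osteoblast, 4 osteoclast and 2 cartilage genes called higher.

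**Figure D4:**
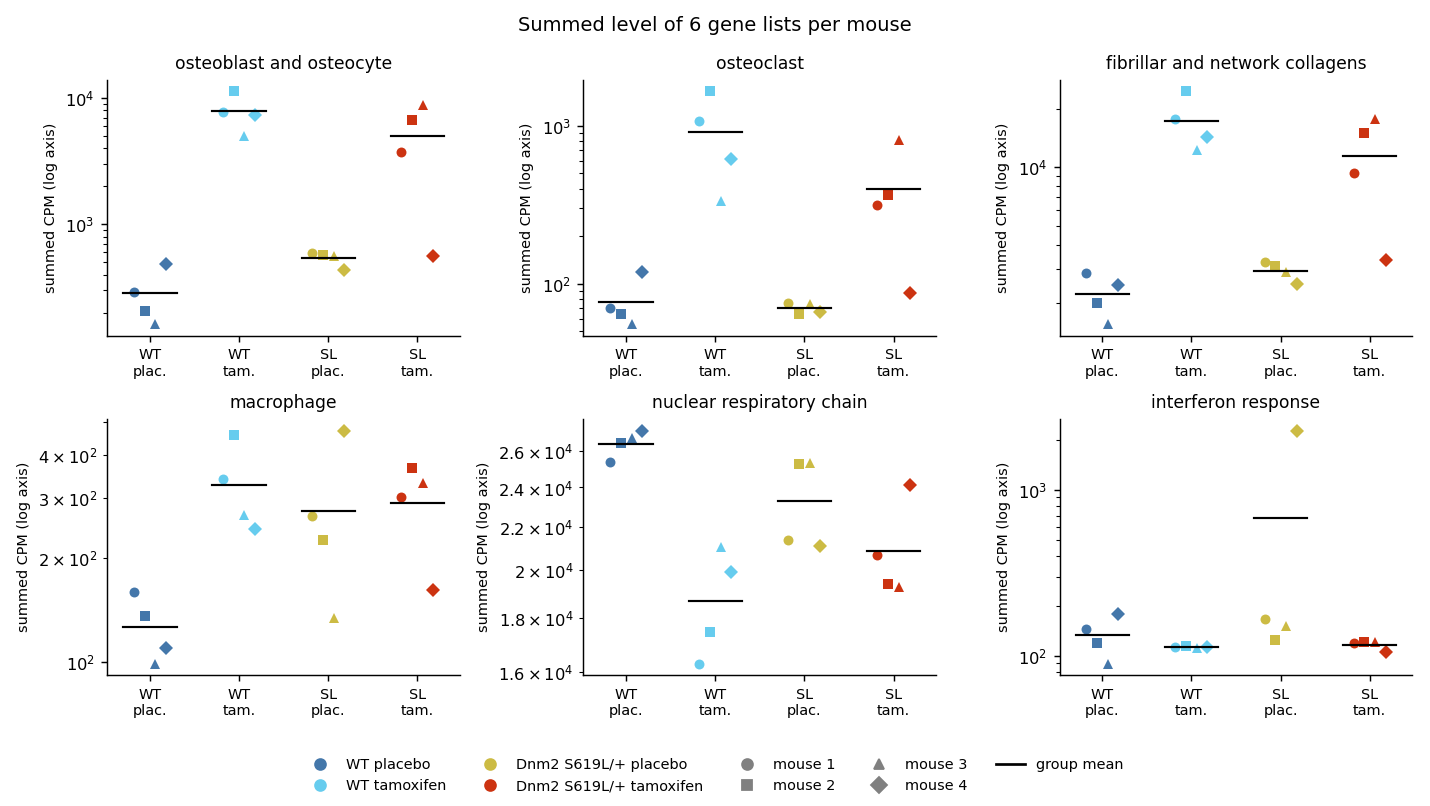
Summed CPM per mouse (log axis) of 6 gene lists in the 4 groups of the cohort (plac., placebo; tam., tamoxifen; SL, Dnm2 S619L/+), with 1 symbol per mouse and a line at each group mean. The bone, osteoclast and collagen lists are high in treated WT mice and in treated mutants 1 to 3, and the interferon list is at 2271 CPM in placebo mutant 4 and at most 179.7 CPM elsewhere.

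Estrogen receptor genes and genes listed as targets of the receptor gave a list with 13 genes tested. Its members, Flrt1 among them, were chosen with earlier results of these data known. Of the 13, 4 rose and 2 fell, against 15.8% and 13.1% of all genes tested. Esr1, the receptor itself, was at 23.2 ± 4.85 CPM in placebo WT mice and 23.4 ± 3.42 CPM in treated mutants (log2 fold change 0.02, SE 0.17, adjusted p = 0.943). The groups overlapped. Flrt1, a membrane protein of cell adhesion and growth factor signaling, was at 0.679, 1.13, 1.90 and 0.759 CPM in placebo WT mice 1 to 4 and at 35.5, 21.3, 30.2 and 44.3 CPM in treated mutants 1 to 4 (log2 fold change 4.98, SE 0.44, adjusted p = 1.98e-05). Treated mutant 4 had the highest value here, unlike in the bone genes. Placebo mutants had 1.03 ± 0.757 CPM and treated WT mice 44.1 ± 15.3 CPM, and the log2 fold change of tamoxifen was 4.82 in mutants and 5.40 in WT mice (adjusted p = 9.08e-05 and 2.37e-05). Pgr, the progesterone receptor, had 0.0811, 0, 0 and 0 CPM in placebo WT mice, 8 reads in all, and 0.981, 1.91, 0.762 and 0.185 CPM in treated mutants, 105 reads (log2 fold change 3.47, SE 0.60, adjusted p = 8.53e-04). Pgr was too low in placebo WT mice to have been called lower. Greb1, another estrogen target, had a log2 fold change of 2.78 (adjusted p = 0.0173). The orphan receptor Esrrb fell by 1.47 on the log2 scale (adjusted p = 2.81e-04).

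Rasd2, a small GTPase of striatal neurons that is also read in muscle here, was at 8.50, 9.85, 9.17 and 4.94 CPM in placebo WT mice and 1.84, 1.67, 1.64 and 1.27 CPM in treated mutants (log2 fold change −2.29, SE 0.31, adjusted p = 2.31e-04). Treated mutants were within a narrow range and below all placebo WT mice. Placebo mutants had 6.94 ± 1.62 CPM, and the log2 fold change of tamoxifen in mutants was −2.08 (adjusted p = 0.00226). Aldh3a1, an aldehyde dehydrogenase, was at 0.0203, 0.396, 0.553 and 0.335 CPM in placebo WT mice and 76.1, 21.6, 36.6 and 8.09 CPM in treated mutants (log2 fold change 6.87, SE 0.83, adjusted p = 1.58e-04). Every treated mutant was above every placebo WT mouse, and the means were 3.34 ± 2.19 CPM in placebo mutants and 3.001 ± 0.758 CPM in treated WT mice. Igfbp2, a binding protein of insulin-like growth factors, was at 0.203, 0, 0 and 0.0223 CPM in placebo WT mice and 19.3, 3.75, 7.62 and 1.98 CPM in treated mutants (log2 fold change 5.82, SE 0.77, adjusted p = 2.40e-04). Of 20 genes of atrophy and growth control, 6 rose and 3 fell, against 15.8% and 13.1% of all genes tested. Igf1 rose (log2 fold change 2.99, adjusted p = 0.00253), as did Fst, which binds and blocks myostatin (2.14, adjusted p = 3.53e-04). Mstn, myostatin itself, was at 49.2, 48.7, 57.3 and 38.2 CPM in placebo WT mice and 18.3, 18.0, 16.7 and 24.8 CPM in treated mutants (log2 fold change −1.31, SE 0.22, adjusted p = 8.63e-04). The ubiquitin ligase Fbxo32 rose (log2 fold change 0.75, adjusted p = 0.0443), and Trim63 did not pass (log2 fold change 1.08, adjusted p = 0.0650).

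Of 14 macrophage genes, 10 rose and 0 fell, with a median log2 fold change of 1.32. Cd68, a lysosomal protein of macrophages, was at 4.67, 5.52, 2.85 and 3.42 CPM in placebo WT mice and 14.7, 15.5, 23.5 and 7.93 CPM in treated mutants (log2 fold change 1.86, SE 0.42, adjusted p = 0.00486). Treated mutant 4 was lowest of its group and still above placebo WT. The resident macrophage markers Cd163, Lyve1 and Mrc1 had log2 fold changes of 0.17, 0.17 and 0.50 and did not pass. The number called was 5 without placebo WT mouse 3, without treated mutant 2, without the low-count filter or with the Xist covariate, and 2 among mice that express Xist. Osteoclasts share genes with macrophages. The summed macrophage level was 302, 365, 331 and 162 CPM in treated mutants 1 to 4 and the summed osteoclast level 317, 363, 815 and 87.8 CPM, both lowest in mutant 4, and the part of either cell type was not tested.

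Interferon and antigen presentation genes gave no calls. None of 19 interferon genes and none of 16 antigen presentation genes was called in either direction by edgeR or DESeq2, and 0 had an unadjusted p under 0.05 in edgeR, with median log2 fold changes of −0.20 and 0.28. In placebo mutants, 6 and 9 of them were higher than in placebo WT, and placebo mutant 4 had summed levels of 2271 and 3332 CPM. Without that mouse, which shares the estimate of the spread, 1 interferon gene was higher and 2 were lower in treated mutants than in placebo WT. Gm4841, an interferon-inducible GTPase gene, was at 2.25, 3.28, 2.45 and 1.497 CPM in placebo WT mice and 2.64, 2.15, 1.12 and 0.370 CPM in treated mutants, beside 24.3, 17.9, 4.35 and 789.8 CPM in placebo mutants 1 to 4. Igkc, the constant part of immunoglobulin light chains, was at 0.547, 0.990, 0.474 and 1.38 CPM and 0.644, 0.638, 0.441 and 0.370 CPM, beside 0.766, 0.480, 0.634 and 309 CPM in placebo mutants. These 2 genes were named for a change in placebo mutants and a p above 0.5 here, so their closeness to placebo WT is a description. Reads of both can be shared with close copies.

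Fgfr4, a receptor for fibroblast growth factors, was among the genes fixed by name. It was at 5.88, 3.40, 2.69 and 5.61 CPM in placebo WT mice 1 to 4 and at 4.72, 1.40, 2.13 and 3.06 CPM in treated mutants 1 to 4, and the groups overlapped (log2 fold change −0.64, SE 0.39, adjusted p = 0.239). The 95% interval of this log2 fold change ran from −1.48 to 0.20. Placebo mutants had 0.586, 0.480, 0.407 and 0.0792 CPM, all below every other group's lowest mouse, with log2 fold changes of −3.31 against placebo WT (adjusted p = 2.01e-04) and 2.67 for treated against placebo mutants (adjusted p = 0.00378). The latter missed the threshold when the groups compared were fitted alone (adjusted p = 0.0656) and among mice that express Xist (adjusted p = 0.090).

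Of 10 genes of smooth muscle and pericytes, 4 fell and 0 rose, and DESeq2 called 4 and 0. With the Xist covariate 3 were lower and among mice that express Xist 0, and the summed level of the list overlapped, at 4225, 4262, 3987 and 4397 CPM in placebo WT mice and 4619.7, 3848, 3846 and 5551 CPM in treated mutants. Rgs5, a pericyte marker, was at 701, 753, 753 and 843 CPM in placebo WT mice and 459, 481, 381 and 351 CPM in treated mutants (log2 fold change −0.87, SE 0.18, adjusted p = 0.00292). Of 14 endothelial genes 2 fell, a share near that of all genes. One of them was Flt1, a receptor for vascular growth factor, which was at 146, 182, 179 and 129.6 CPM and 60.7, 79.1, 53.9 and 68.6 CPM (log2 fold change −1.28, SE 0.21, adjusted p = 6.53e-04). Of 9 imprinted growth genes, 5 rose and 0 fell, led by Mest at 6.43, 4.24, 2.29 and 5.79 CPM in placebo WT mice and 20.1, 26.8, 29.2 and 8.74 CPM in treated mutants (log2 fold change 2.12, SE 0.38, adjusted p = 0.00119). Of 15 cell cycle genes, 8 rose, among them the mitotic kinase Cdk1 at 0.537, 0.283, 0.158 and 0.357 and 1.47, 1.24, 2.13 and 1.51 CPM (log2 fold change 1.95, SE 0.45, adjusted p = 0.00552), and 1 fell, the mitotic kinase Aurka (log2 fold change −0.96, adjusted p = 0.00470). The number rising was 3 without placebo WT mouse 2, 5 without placebo WT mouse 3 or treated mutant 2, 4 without treated mutant 3, 5 with the Xist covariate and 0 among mice that express Xist. In libraries thinned to the smallest, the log2 fold change of Cdk1 was 1.11 and the call was lost (adjusted p = 0.181). Erythroid genes gave 0 calls among 7 tested by either tool and 0 at an unadjusted p under 0.05.

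**Figure D5:**
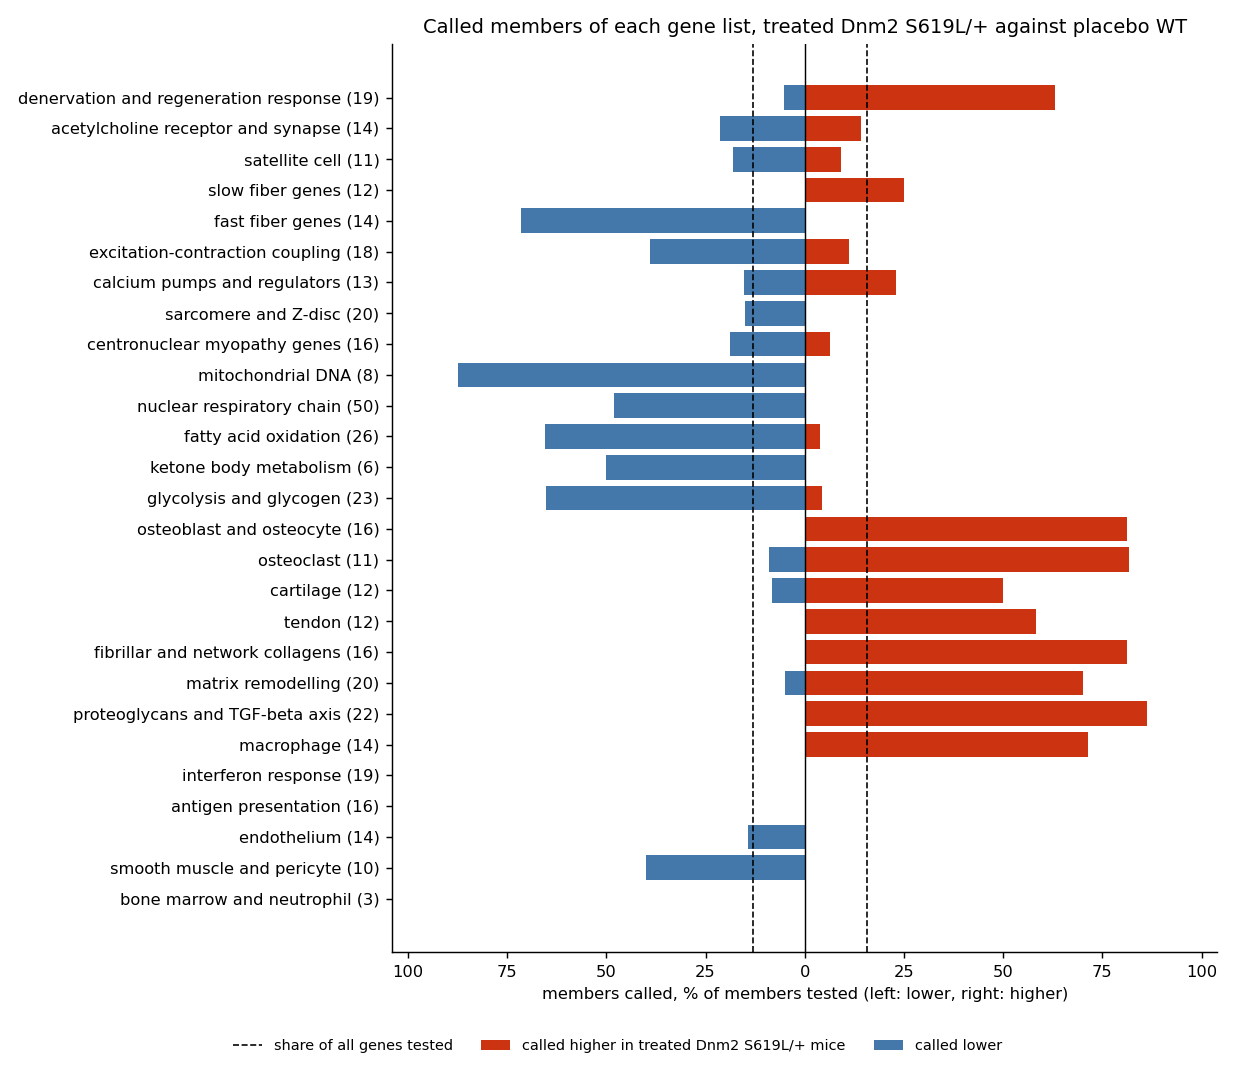
Share of tested members (number in brackets) of 27 gene lists called higher (red, to the right) or lower (blue, to the left) in treated Dnm2 S619L/+ mice against placebo WT, in %, with dashed lines at the shares of all genes tested, 15.8% higher and 13.1% lower. Bone, matrix and macrophage lists reach furthest to the right, and fast fiber, mitochondrial and metabolic lists to the left.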

How the data were processed

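Per the labels, stranded mRNA libraries of TA muscle, each from 300 ng of RNA, were sequenced for every mouse. The table the authors deposited holds raw read counts for each Ensembl gene. The submitters' processing notes name bcl2fastq 2.20.0.422, cutadapt 1.10, Bowtie 1.2.2, STAR 2.5.3, HTSeq 0.6.1p1 and the mm39 build, without their roles. Of 55416 identifiers, 52083 were named with GENCODE M21, from which no coordinates were taken. Groups came from the labels. The paper names no differential test, so edgeR 4.0.16 in R 4.3.3 was used, with TMM scaling, its default low-count filter, the robust quasi-likelihood test and a prior count of 2, on all 16 mice of the Dnm2 cohort in 1 fit. Adjusted p-values are Benjamini-Hochberg values over 15439 genes, with a threshold of 0.05. SE and intervals of log2 fold changes come from this fit. Bulk depth sets the precision: in counts simulated for this comparison with 200 of 15439 genes changed, 90% of 4-fold and 60.7% of 2-fold changes were recovered, and 5.24% of calls were unchanged genes. Mice of a group differed beyond counting error (chi-square per gene at least 15.6), so none was merged. Replicate numbers did not pair the mice (correlations −0.23 to 0.13).

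The genes named are the 12 largest rises and falls among calls with mean log2 CPM above 1 and no overlap, the 3 smallest p of each of 45 lists, 12 fixed genes, the 5 most abundant calls, and 5 genes changed in placebo mutants with p above 0.5 here, 142 in all. Single results on some genes are not reported here. Other genes are list members named after their values were seen. Members and lists were chosen with earlier results of these data known. Alternatives were DESeq2 1.42.0, RLE scaling, no filter, a filter of more than 10 reads in 90% of mice, the groups compared alone, a replicate block, no robust estimation, libraries thinned to 15586333 reads, no mitochondrial genes and leaving out each mouse. The Xist covariate, the mice that express Xist, and the covariate without treated mutant 4 were added after the data were seen. Counts of the Bin1 cohort, which has another library protocol, were not used. Python 3 scripts with pandas drew the plots.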

Additional observations from a re-analysis of the deposited data

Results flagged for a closer look

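In 13 of 284 groups of 4 mice, over the 142 genes, 1 mouse lay further from the rest than Dixon's 95% critical value allows, and chance gives about 1 in 20. In placebo WT mice these were Krt18 in mouse 3 (0.395 CPM), Prss35 in mouse 2 (0 CPM), Igfbp2, Col10a1, Pgr, Xbp1 and Acadl in mouse 1 (0.203, 0.0101, 0.0811, 78.7 and 475 CPM), and Ndufa8 and Esrrb in mouse 4 (228 and 14.6 CPM). In treated mutants they were Npas2, Egr1 and Sdha in mouse 4 (2.44, 177 and 1110 CPM) and Mt3 in mouse 1 (8.89 CPM).

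For 6 of the 142 genes the effect of tamoxifen differed between mutants and WT mice by edgeR's interaction term, which called 40 genes, or 0.259% of those tested. The effect in mutants minus that in WT mice, on the log2 scale, was −5.13 for Timp1, an inhibitor of matrix proteases, −5.11 for the metal-binding Mt3, −2.70 for Runx1 and −2.26 for Fst. It was 0.70 for Etfdh, an enzyme of fatty acid oxidation, and 1.11 for Lpl. In placebo mutants the former 4 were above placebo WT mice (adjusted p at most 2.56e-04) and the latter 2 below (adjusted p at most 1.77e-04). Timp1 was at 21.6 ± 12.2 CPM in placebo mutants, 27.9 ± 18.0 in treated mutants, 37.8 ± 13.9 in treated WT mice and 0.736 ± 0.461 in placebo WT mice (n = 4 each), and Mt3 at 30.6 ± 15.8, 5.66 ± 2.18, 3.87 ± 2.25 and 0.513 ± 0.173 CPM in the same order.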

How the results depend on the processing

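The number of genes called was 4461, with 2435 higher and 2026 lower. Leaving out each mouse gave 2955 to 5497 genes, 1690 to 3042 of them higher and 1265 to 2455 lower, the lowest without treated mutant 3 and the highest without treated mutant 4. Without placebo WT mouse 2 or 3, the genes called lower were 1271 and 1346. Among mice that express Xist it was 1099, with 682 higher and 417 lower, from 2 placebo WT mice. The replicate block gave 3976 (2200 higher, 1776 lower), with 4 of the 142 genes losing the call. DESeq2 gave 5068, no filter 3570, thinned libraries 3410 and the Xist covariate 3266. Of 3933 values of the 142 genes under 28 settings, 3776 kept direction and side of the threshold, 147 lost the call, 50 of them among mice that express Xist, and 10 changed sign, none of these being called genes. Igha was −0.37 to 1.28 when 1 mouse was left out and −0.10 with the Xist covariate. Jchain was −0.81 with the covariate and −0.84 when treated mutant 4 was also left out. Mtm1 was −0.039 in thinned libraries and −0.0159 to 0.16 when 1 mouse was left out, and Esr1 −0.0851 to 0.17. Genes with few reads, such as Pgr, and small changes are limited by depth and by 4 mice a group. The causes of these changes were not tested.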

Other observations

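Immediate early genes, which answer to nerve activity or handling within minutes, were higher in treated mutants for 4 of 11 and lower for 0. Of all genes tested, 15.8% were higher and 13.1% lower. Among mice that express Xist, 1 immediate early gene was higher and 0 were lower. Without treated mutant 4, 3 were higher and 1 was lower. The summed level was 368, 357, 350 and 1285 CPM in treated mutants 1 to 4. It was 359, 372, 596 and 519 CPM in placebo WT mice, so the groups overlapped. Junb was at 5.41, 3.96, 5.53 and 7.46 CPM in placebo WT mice 1 to 4 and at 20.1, 18.1, 22.2 and 26.1 CPM in treated mutants 1 to 4 (log2 fold change 1.94, SE 0.37, adjusted p = 0.00174), with no overlap. Egr1 was at 20.5, 26.2, 16.8 and 19.7 and 59.5, 53.2, 54.0 and 177 CPM (log2 fold change 2.04, SE 0.54, adjusted p = 0.0115), and its call was lost when the Xist covariate was fitted without treated mutant 4 (adjusted p = 0.0732). Of 16 clock genes 1 rose and 3 fell, a share near that of all genes. Among mice that express Xist, 1 clock gene was higher and 2 were lower. Npas2 was at 1.18, 0.226, 0.158 and 0.536 and 9.26, 10.4, 10.3 and 2.44 CPM (log2 fold change 3.61, SE 0.72, adjusted p = 0.00232) and Hlf at 10.53, 28.7, 31.9 and 16.5 and 3.80, 6.26, 6.74 and 4.60 CPM (log2 fold change −2.02, SE 0.42, adjusted p = 0.00284). The labels give no time of day for the dissections.

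Chaperone genes rose in 5 of 14 cases and fell in 1, against 15.8% and 13.1% of all genes tested. Among mice that express Xist, 1 chaperone gene was higher and 0 were lower. Hspb8, a small heat shock protein of the Z-disc, was at 313, 346, 320.3 and 353 CPM in placebo WT mice and 713, 473, 493 and 562 CPM in treated mutants (log2 fold change 0.75, SE 0.17, adjusted p = 0.00429), below the 898 ± 232 CPM of placebo mutants. The mitochondrial chaperone Hspd1 fell by 0.58 on the log2 scale (adjusted p = 0.00587). Of 22 genes of the unfolded protein and integrated stress responses, 8 rose and 1 fell. Pdia4, a folding enzyme of the endoplasmic reticulum, was at 15.97, 16.2, 14.5 and 15.9 and 31.7, 45.6, 39.0 and 15.8 CPM (log2 fold change 1.07, SE 0.28, adjusted p = 0.0113), and the value of treated mutant 4 lay within the placebo WT range. The 8 became 5 without placebo WT mouse 2 or 3, in thinned libraries, in the groups compared alone or with the Xist covariate. They became 4 without treated mutant 2 and 2 among mice that express Xist.

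Of 11 Schwann cell and nerve genes, 1 rose and 0 fell by edgeR, while DESeq2 called 1 and 2 and 2 fell at an unadjusted p under 0.05. Among mice that express Xist, 0 were called in either direction. The riser was S100b, which was at 1.49, 1.33, 1.502 and 2.06 CPM in placebo WT mice and 4.85, 7.49, 7.74 and 1.88 CPM in treated mutants (log2 fold change 1.74, SE 0.41, adjusted p = 0.00607), with mutant 4 in the placebo WT range.

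The remaining lists are given by their counts, beside 15.8% higher and 13.1% lower among all genes tested. In the muscle fiber, 2 of 14 synapse genes rose and 3 fell. Of 20 sarcomere and Z-disc genes 0 rose and 3 fell, and of 11 satellite cell genes 1 rose and 2 fell. Among mice that express Xist, 1 synapse gene and 1 satellite cell gene were higher, 1 of each was lower, and 0 sarcomere genes were called. In metabolism, 0 of 6 ketone body genes rose and 3 fell and 2 of 22 sterol synthesis genes rose and 2 fell. In mice that express Xist, 0 ketone body genes were higher and 2 lower, and 1 sterol gene was higher and 1 lower. In stress and turnover, 5 of 11 metallothionein and redox genes rose and 1 fell. Of 20 autophagy and lysosome genes, 7 rose and 1 fell. Among mice that express Xist, the numbers higher were 3 and 1, and the numbers lower 0 and 0. Among other cell types, 3 of 10 markers of fibro-adipogenic progenitors rose and 0 fell, and 1 of 12 adipocyte genes rose and 2 fell. Of 5 lymphocyte genes 1 rose and 0 fell, and of 2 skin genes 1 rose and 0 fell. Among mice that express Xist, 1 progenitor marker, 1 adipocyte gene and 1 skin gene were higher. In the same mice 2 adipocyte genes were lower and 0 lymphocyte genes were called. The lymphocyte riser was Cd4, whose call was lost with the Xist covariate (adjusted p = 0.134). The summed lymphocyte level was 22.9, 23.6, 15.6 and 6.48 CPM in treated mutants and 29.4, 50.3, 97.2 and 56.4 CPM in placebo WT mice. None of 3 neutrophil genes or 5 sex-linked genes was called by edgeR, where 0 and 4 were lower at an unadjusted p under 0.05 and DESeq2 called 0 and 4 lower.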
